A study of Homo sapiens with 16 samples.

Results

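The RNA response of the H1703 line to a pair of small molecules given together was examined over all genes. H1703 is a human non-small cell lung cancer line, and its response rests on 4 of the 16 libraries of the series: 2 with the combination and 2 with vehicle. The combination was 5 µM MYCi975 with 25 µM TMP195 for 48 hours, begun 1 day after plating, and the vehicle was DMSO. All cells grew in RPMI medium with 10% fetal bovine serum. The other 12 libraries, of the lines H460, HCC827 and H441 under the same 2 conditions, serve here as context, and the series lists H1703 with H460 as responsive, apart from HCC827 and H441. Each line is a single established line. Treatment with MYCi975 or TMP195 alone, which the protocol also names, was not analysed here. A change therefore cannot be assigned to one compound, to the other or to their pairing. The labels do not tell whether replicate libraries were separate cultures or repeats of one, so p-values measure only the spread between libraries, which may be technical.

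MYC is a transcription factor that pairs with MAX on E-box DNA and drives genes of cell growth, among them those of ribosomes, nucleotides and the cell cycle. MYCi975 binds MYC, weakens its pairing with MAX and favours its degradation. HDAC4, HDAC5, HDAC7 and HDAC9 form class IIa of the histone deacetylases. MEF2 factors carry them to genes, which they repress, and TMP195 occupies their catalytic pocket.

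H1703 is known for amplified PDGFRA and FGFR1, which encode receptor tyrosine kinases for platelet-derived and fibroblast growth factors. PDGFRA had 4732 and 4696 normalised reads with the combination, against 11368 and 10545 with vehicle, while the 12 libraries of the other lines had 0 to 1.09. The levels fitted the label in all 4 libraries. VIM, a mesenchymal intermediate filament, was high (15276 and 14231 normalised reads with the combination, against 8872 and 10015 with vehicle), and CDH1, the epithelial cadherin, was close to 0 (1.09 and 1.58 normalised reads with the combination, against 6.82 and 9.11 with vehicle). KRT5, a squamous keratin, was not analysed here, and TP63, the squamous master factor, had 2.18 and 0 normalised reads with the combination, against 0.974 and 2.10 with vehicle. Of 17 markers of blood, vessel, fibroblast and liver cells 6 were in the table, with 5 and 6 reads in all with the combination and 3 and 4 with vehicle. The endothelial marker VWF had 4 and 6 of those reads with the combination and 0 with vehicle, and PDGFRB had 2 and 4 reads with vehicle.

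Depth was 8493271 and 11399624 reads with the combination and 9914760 and 13604150 with vehicle. Replicates correlated at 0.982 with the combination and 0.985 with vehicle across genes, against 0.951 to 0.957 between conditions. Genes are not independent replicates, and these correlations only describe the libraries. Reads from the mitochondrial genome were 17.1 and 15.4% of the total with the combination, against 13.5 and 12.1% with vehicle, and their part in the results below was not tested. Ribosomal protein genes took 3.32 and 3.12% with the combination, against 2.26 and 2.13% with vehicle. In bulk RNA, fewer cells of a kind and less RNA per cell cannot be told apart.

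Of 23968 genes tested, 8500 passed at an adjusted p under 0.05, which is 35.5% of them, by limma with Benjamini-Hochberg adjustment. With the combination 4283 were higher (17.9%) and 4217 were lower (17.6%). These 2 shares of all tested genes are the background for every count of list members below. Changes are log2-scale differences, combination minus vehicle, with standard errors from that fit. A rise of at least 1 was found in 2211 genes (9.22%) and a fall of at least 1 in 1601 (6.68%). A rise of at least 2 was found in 522 and a fall of at least 2 in 272. The median of all tested genes was 0.08. When each library was centred on its own median, every H1703 change fell by 0.2422 and the split became 2626 higher and 5824 lower, so the balance of directions depends on the scaling, and a rise under about that size is relative to it. The libraries of the 2 conditions did not overlap in 67.3% of all tested genes and in 8493 of the 8500 that passed. Most list members named below were chosen among genes that passed. Separation of their libraries therefore follows from that choice and adds no support. Protein-coding genes were 3237 higher and 3695 lower of 14643, a split that became 1982 and 5051 with median centring. Long non-coding genes were 657 higher and 347 lower of 5339, a split that became 405 and 512 with median centring.

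**Figure D1:**
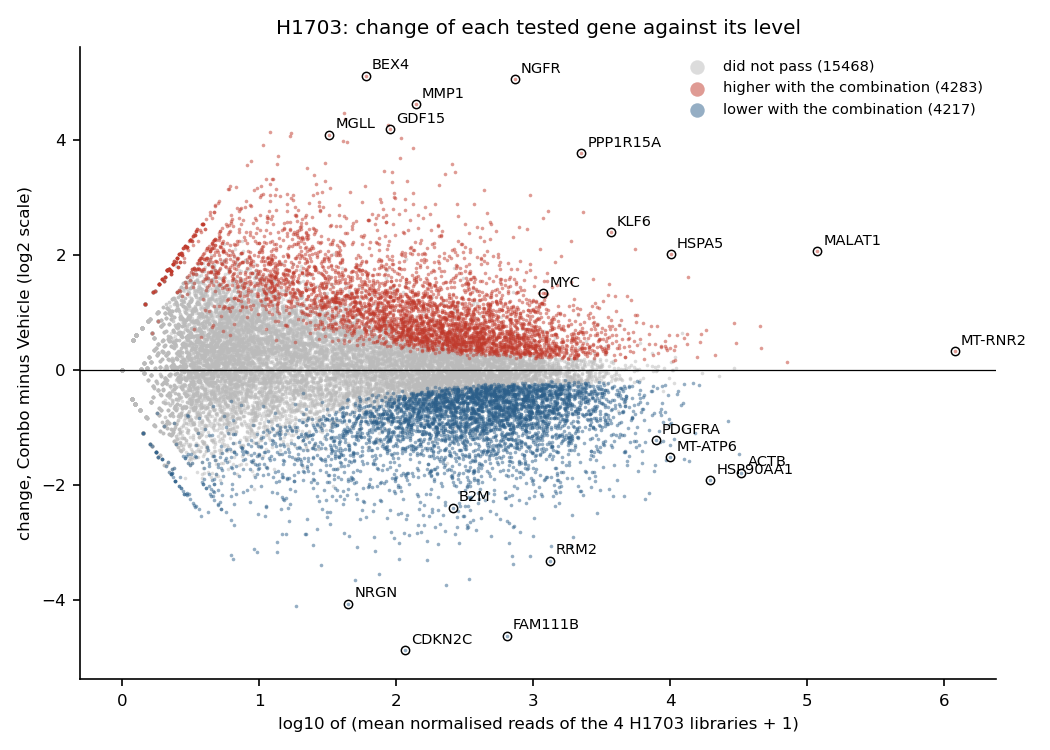
Each point is 1 of the tested genes in H1703, with the log10 of its mean normalised reads plus 1 on the x axis and its change, combination minus vehicle, on the y axis (log2 scale). Red genes were higher with the combination (4283), blue genes lower (4217), grey genes did not pass, and open circles mark genes named in the text, from MT-RNR2 at the right end to CDKN2C at the bottom.

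The 12 largest rises ran up to 5.12 in BEX4 and the 12 largest falls down to -4.87 in CDKN2C, with at least 20 normalised reads as the mean of the 4 libraries. BEX4, of a small family of brain-expressed adaptor proteins, had 103 and 126 normalised reads with the combination, against 0 and 5.60 with vehicle, a change of 5.12 ± 0.68. NGFR (chromosome 17, 49495293 to 49515017, GRCh38), the low-affinity neurotrophin receptor, had 1386 and 1447 normalised reads with the combination and 32.1 and 49.0 with vehicle. Its change was 5.06 ± 0.44 (adjusted p = 1.86e-08), beside 1.23 in H460, 0.42 in HCC827 and 0.00 in H441. The antisense gene NGFR-AS1 overlaps NGFR and also rose (4.36 ± 0.61). No source used here gives the strand setting of the counting, so reads of the pair may not be told apart.

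MMP1, interstitial collagenase, had 315 and 219 normalised reads with the combination, against 6.82 and 9.81 with vehicle (4.62 ± 0.61). ACTN2, the actinin of muscle Z-discs, had 172 and 160.0 normalised reads with the combination, against 2.92 and 11.9 with vehicle (4.26 ± 0.56), with changes of 0.82 in H460, -2.29 in HCC827 and 0.00 in H441. ELAVL3, a neuronal RNA-binding protein, had 232 and 177 normalised reads with the combination, against 11.7 and 8.41 with vehicle (4.03 ± 0.61). In each of these 3 genes both libraries with the combination lay far above both with vehicle, and their choice required no overlap. MAP6, a neuronal protein that stabilises microtubules, rose by 3.98 ± 0.56 and MGLL, the lipase that splits monoacylglycerols, by 4.09 ± 0.15. The organic ion transporter gene SLC22A15 rose by 3.87 ± 0.51 and LINC02649 by 3.97 ± 0.65.

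CDKN2C, which encodes the p18 inhibitor of CDK4 and CDK6, fell the most among the named genes. It had 3.27 and 7.88 normalised reads with the combination, against 205 and 244 with vehicle, a change of -4.87 ± 0.23 (adjusted p = 3.05e-12). FAM111B, a protease gene expressed with DNA replication, had 39.2 and 57.5 normalised reads with the combination, against 1143 and 1314 with vehicle (-4.61 ± 0.22). NRGN, a neuronal calmodulin-binding protein, had 3.27 and 2.36 normalised reads with the combination, against 77.9 and 90.4 with vehicle (-4.06 ± 0.33). The libraries of the 2 conditions were again far apart in all 3, whose choice also required no overlap. FAM222A fell (-3.65 ± 0.36), as did ATOH8, a basic helix-loop-helix factor (-3.28 ± 0.69). Among the 12 largest falls were also 5 genes of S phase: RRM2, ESCO2 and the histones H2AC12, H2BC17 and H2AC4.

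**Figure D2:**
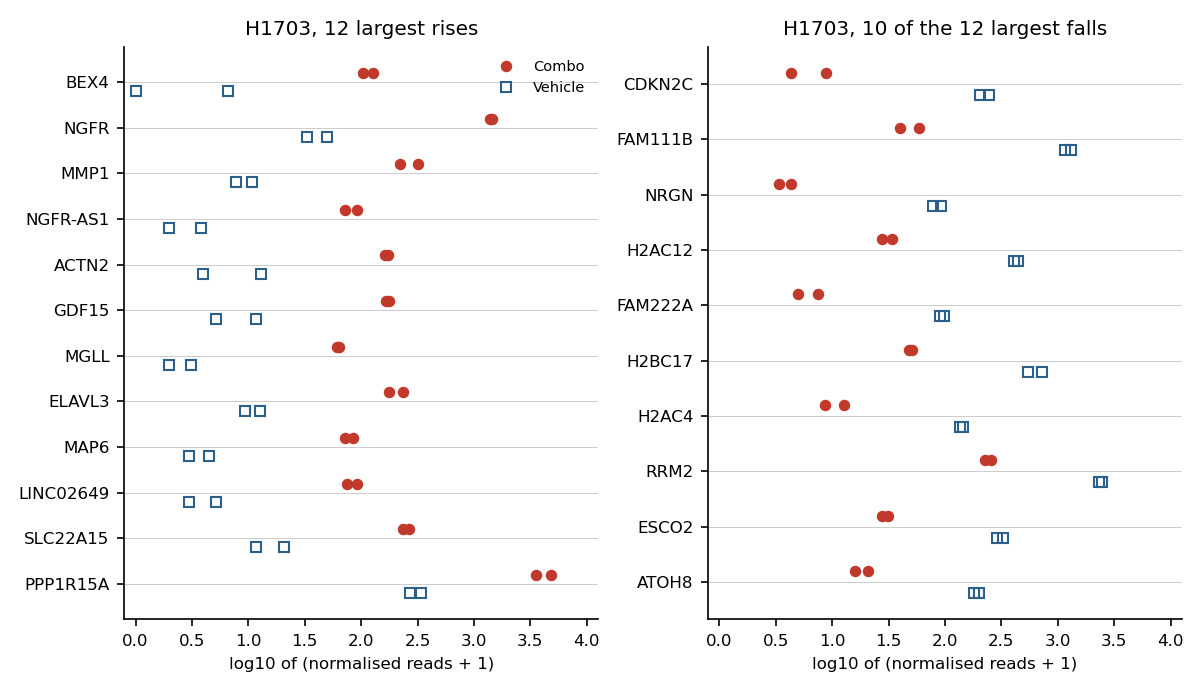
Normalised reads of each H1703 library for the 12 largest rises (left) and 10 of the 12 largest falls (right), on a log10 axis after adding 1. Filled red circles are the 2 libraries with the combination and open blue squares the 2 with vehicle; the groups do not overlap in any of the 22 genes, which their choice required.

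Among genes that changed by at least 1, those with most reads included MALAT1 and HSPA5 upward and ACTB, HSP90AB1 and HSP90AA1 downward, by read totals that are not corrected for length. MALAT1, a nuclear non-coding RNA, had 212568 and 169413 normalised reads with the combination, against 48150.4 and 42756 with vehicle (2.06 ± 0.14). ACTB, cytoplasmic beta actin, had 13895 and 15936 normalised reads with the combination, against 50202 and 51975 with vehicle (-1.78 ± 0.08), beside changes of -0.03 in H460, -0.19 in HCC827 and 0.46 in H441. The difference of ACTB to the mean of the other 3 lines was -1.86 ± 0.09. The long non-coding gene with the largest fall was LINC01963 (-2.81 ± 0.27).

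Genes with 0 reads in one condition were few and rested on few reads. IGFN1 had 40 reads in all with the combination and 0 with vehicle, at least 14.96-fold higher when 3 reads over both vehicle libraries are taken as the floor. DCT, an enzyme of melanin synthesis, had 35 against 0 (at least 13.1-fold higher). SPDYE22P had 0 reads with the combination and 25 with vehicle (at least 7.43-fold lower), and PPIAP34 and MRO had 0 with the combination and 14 each with vehicle (at least 4.16-fold lower). IGFN1 and MRO lost the call in at least 1 alternative fit.

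The targets of the compounds changed at the RNA level in both directions. MYC (chromosome 8, 127735434 to 127741434) had 1688 and 1691 normalised reads with the combination, against 663 and 665 with vehicle, and its change of 1.34 ± 0.11 differed from the mean of the other lines by 1.08 ± 0.13 (adjusted p = 3.58e-06). MYCL, the paralog first found in small cell lung cancer, had 81.7 and 92.2 normalised reads with the combination, against 11.7 and 12.6 with vehicle (2.60 ± 0.37). Both family members that were tested rose, and their libraries did not overlap. Of 10 partners and antagonists of MYC 6 rose and 2 fell, beside 17.9 and 17.6% of all genes. MXI1, MNT and MXD1, which pair with MAX and oppose MYC, rose by 1.78 ± 0.15, 1.22 ± 0.12 and 1.06 ± 0.21, and MLX, the partner of the MONDO factors, by 1.06 ± 0.09. MXD3 fell (-1.28 ± 0.09), as did MAX (-0.32 ± 0.10), which did not pass with any of combination libraries 1 and 2 and vehicle library 1 left out (adjusted p = 0.102, 0.055 and 0.283).

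Among the class IIa deacetylases, HDAC9 had 448 and 502 normalised reads with the combination, against 170.4 and 188 with vehicle (1.39 ± 0.26) and HDAC5 599 and 648 normalised reads with the combination, against 400.3 and 376 with vehicle (0.68 ± 0.12). HDAC4 had 244 and 279 normalised reads with the combination, against 361 and 415 with vehicle (-0.56 ± 0.12). HDAC9 and HDAC5 thus rose and HDAC4 fell, while HDAC7 did not pass, with 325 and 297 normalised reads with the combination, against 403 and 301 with vehicle and a change of -0.16 ± 0.13 (adjusted p = 0.35), and the change was 0.0466 without vehicle library 1. Of 7 other deacetylases 3 rose and 2 fell, beside 17.9 and 17.6% of all genes.

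MEF2 and KLF genes rose or did not pass. Of 19 tested MEF2 factors and genes described as their targets 8 rose and 0 fell, with a median change of 0.92 beside 0.08 for all genes. KLF6, a zinc finger factor, had 6419.7 and 5885 normalised reads with the combination, against 1196 and 1136 with vehicle (2.40 ± 0.14), and its difference to the other lines was 2.35 ± 0.17. NR4A1, an orphan nuclear receptor that HDAC7 represses in thymocytes, rose by 1.88 ± 0.27. JUN rose by 1.39 ± 0.22, MEF2A by 1.33 ± 0.10 and MEF2D by 0.97 ± 0.13. Of 14 KLF factors tested 9 rose and 0 fell (median 0.95), KLF11 by 1.82 ± 0.17. Immediate early genes did not move as a group: 6 of 20 tested rose and 2 fell, with a median of 0.09 that was -0.15 with median centring. MAFF, a small MAF protein, rose by 1.50 ± 0.29.

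Genes that feed back on ERK signalling were mostly higher. Of 18, 10 rose and 1 fell (median 0.75). DUSP5, a nuclear phosphatase that inactivates ERK, had 490.1 and 459 normalised reads with the combination, against 34.1 and 40.6 with vehicle (3.58 ± 0.33). SPRY4, a Sprouty inhibitor of receptor tyrosine kinase signalling, had 1745 and 1907 normalised reads with the combination, against 416 and 423 with vehicle (2.11 ± 0.14). Both libraries with the combination exceeded both with vehicle in each gene. SPRY2 rose by 1.73 ± 0.18. The cytosolic ERK phosphatase DUSP6 had a change of 1.76 ± 0.47, which missed the threshold without combination library 1 (adjusted p = 0.081) or vehicle library 2 (adjusted p = 0.0766).

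Cell division genes fell nearly without exception. All 51 tested genes of DNA replication and the G1/S step fell, with a median change of -1.47, beside 17.6% of all tested genes. By role, 18 of 18 licensing and helicase genes, 22 of 22 polymerase and fork genes and 11 of 11 genes of G1/S control fell. Of 69 genes of G2/M and mitosis 68 fell and 0 rose (median -1.79): 15 of 15 kinases and cyclins, 24 of 24 kinetochore and chromosome genes, 20 of 20 spindle and cytokinesis genes and 9 of 10 genes of mitotic exit and control. The medians of the 2 lists in the other lines were -1.69 and -1.73 in H460, -0.45 and -0.80 in HCC827 and -0.14 and -0.15 in H441. In the test of the difference to the mean of those lines, 37 of 51 replication genes and 58 of 69 mitotic genes fell more in H1703, beside 14.1% of all genes.

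Promoters of 3 of these genes are shown with short motifs of cell cycle factors. Here and below, the promoters shown were chosen among named list members for the most copies of the motifs marked. Presence of a motif in them was thus required by the choice. Promoters run 250 bases before to 50 after the gene start, from RefSeq on GRCh38.p14, read 5′ to 3′ on the gene's strand, and capitals mark the motif. Of the named replication genes whose promoter holds an E2F motif, E2F2 and MCM10 fell the most. Their capitals mark 1 of the E2F motifs TTTGGCGC, TTTCCCGC, TTTCGCGC and TTTGGCGG, searched on both strands. SPC25, a kinetochore subunit, has the cell cycle homology motif TTTGAA and the CCAAT box marked.
E2F2 (chr1:23531184-23531483, minus strand): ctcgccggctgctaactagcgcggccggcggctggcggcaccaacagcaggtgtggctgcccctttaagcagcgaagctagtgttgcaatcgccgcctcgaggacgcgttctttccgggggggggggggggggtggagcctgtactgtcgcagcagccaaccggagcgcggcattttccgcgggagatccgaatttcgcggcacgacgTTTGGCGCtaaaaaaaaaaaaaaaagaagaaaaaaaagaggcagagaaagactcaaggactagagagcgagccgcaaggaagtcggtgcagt
MCM10 (chr10:13161308-13161607, plus strand): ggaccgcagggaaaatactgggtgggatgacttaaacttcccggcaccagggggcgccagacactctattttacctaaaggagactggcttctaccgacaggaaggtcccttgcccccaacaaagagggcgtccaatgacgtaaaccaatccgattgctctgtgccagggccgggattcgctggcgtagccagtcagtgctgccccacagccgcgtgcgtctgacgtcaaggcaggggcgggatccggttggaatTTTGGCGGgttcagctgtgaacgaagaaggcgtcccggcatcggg
SPC25 (chr2:168890381-168890680, minus strand): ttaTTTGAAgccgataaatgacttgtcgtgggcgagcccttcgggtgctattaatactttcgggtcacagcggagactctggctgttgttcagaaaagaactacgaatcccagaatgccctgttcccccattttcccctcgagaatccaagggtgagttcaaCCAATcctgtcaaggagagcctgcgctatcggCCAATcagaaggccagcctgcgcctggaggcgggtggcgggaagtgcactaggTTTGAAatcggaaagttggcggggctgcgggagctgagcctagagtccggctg

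An E2F motif was in 23 of the 43 promoters given for the replication and G1/S genes (53.5%), in 7 of 60 given for G2/M genes (11.7%) and in 3.37% of all 27305 promoters. TTTGAA was in 42 of the 60 G2/M promoters (70.0%) and 15.6% of all, and CCAAT in 44 of the 60 (73.3%) and 35.6% of all. A match describes the letters and does not show binding.

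E2F2, an activating E2F factor, had 40.3 and 44.1 normalised reads with the combination, against 351 and 369 with vehicle (-3.01 ± 0.24). MCM10, which loads at replication origins, had 208 and 186 normalised reads with the combination, against 1349.8 and 1443 with vehicle (-2.81 ± 0.11). PCNA, the sliding clamp of replication, had 198 and 181 normalised reads with the combination, against 1254 and 1254 with vehicle (-2.71 ± 0.11). In all 3 both libraries with the combination lay far below both with vehicle. MYBL2, a factor of the complex that switches on mitotic genes, had 178 and 182 normalised reads with the combination, against 1716 and 1681 with vehicle (-3.22 ± 0.08), and SPC25 had 41.4 and 30.7 normalised reads with the combination, against 309.7 and 289 with vehicle (-2.97 ± 0.22). FOXM1, the forkhead factor of G2/M genes, fell (-2.90 ± 0.11), as did BIRC5, which encodes survivin (-2.89 ± 0.12).

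Genes that supply S phase fell as well. Of 53 tested replication-dependent histone genes 45 fell and 0 rose (median -1.95), with H1-5 at -3.05 ± 0.13. Histone genes are near-identical copies, so single members are uncertain. TYMS, thymidylate synthase, had 393 and 407 normalised reads with the combination, against 3302 and 3406 with vehicle (-3.06 ± 0.10). RRM2, the regulated subunit of ribonucleotide reductase, had 256 and 223 normalised reads with the combination, against 2332 and 2462 with vehicle (-3.31 ± 0.09). Of 10 dNTP genes 8 fell and 0 rose (median -1.56), whereas of 12 purine genes 5 fell and 1 rose (median -0.13) and of 6 pyrimidine genes 3 fell. DNA repair genes fell in 22 of 24 cases (median -1.23), with EXO1, a resection nuclease, at -2.19 ± 0.10 and FANCI, a Fanconi anaemia protein, at -2.18 ± 0.10.

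Genes that restrain or start the cycle were mixed. Of 15 tested CDK inhibitors, D cyclins and CDKs 2 rose and 7 fell. CCNG2, a cyclin linked to cell cycle arrest, rose by 2.64 ± 0.21. CCND3 (-1.96 ± 0.22), CDK2 (-1.58 ± 0.11) and CDK4 (-1.24 ± 0.12) fell. CDKN1A, which encodes p21, did not pass (0.50 ± 0.20, adjusted p = 0.0599).

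**Figure D3:**
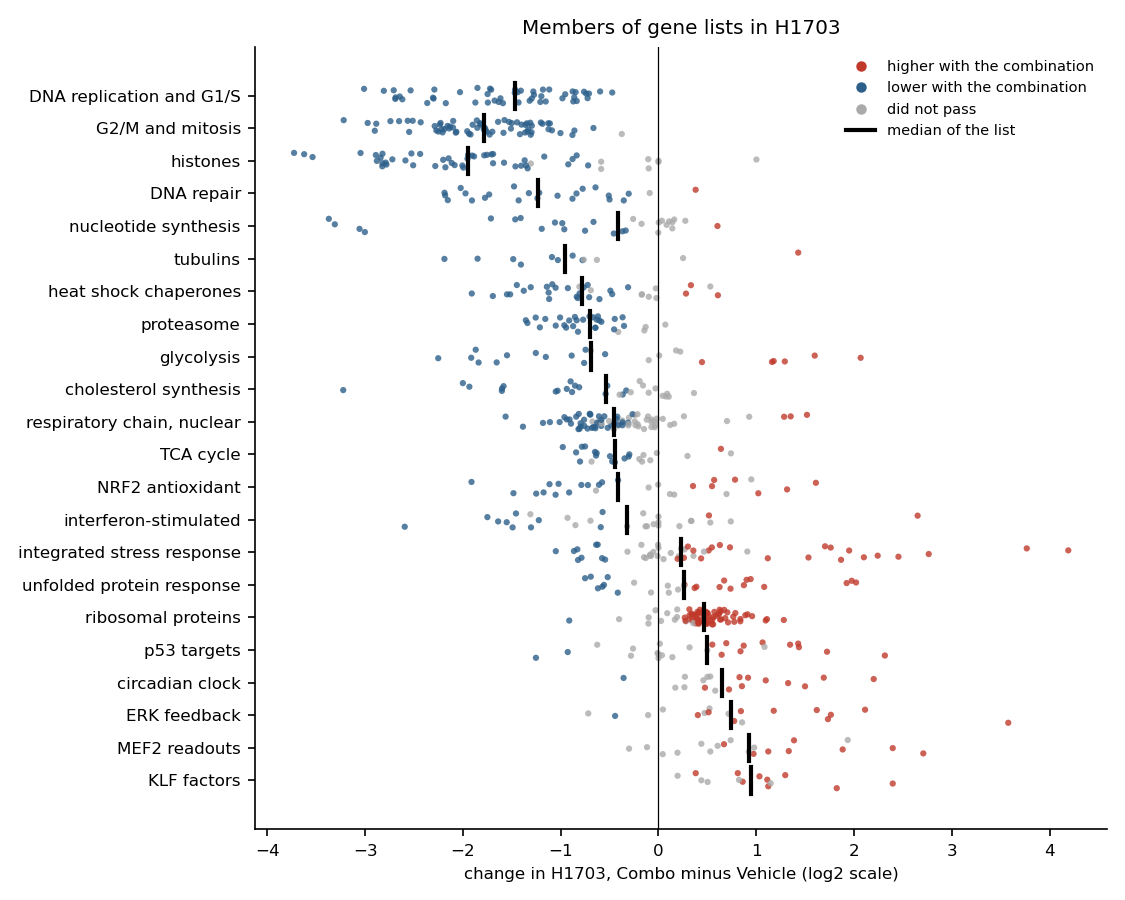
Changes in H1703, combination minus vehicle on the log2 scale (x axis), of the tested members of 22 gene lists (rows). Each point is 1 gene, red where it was higher with the combination, blue where it was lower and grey where it did not pass, and the black bar is the median of the list. The cell division lists lie left of 0 with medians from -1.23 to -1.95, while ribosomal protein, clock, ERK feedback, MEF2 and KLF lists have medians from 0.46 to 0.95.

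Ribosome genes split between the making of ribosomes and their proteins. Of 69 ribosome biogenesis genes 24 fell and 14 rose (median -0.09, and 0.04 with quantile normalisation), and no direction held the list. UBTF, which recruits RNA polymerase I, fell (-1.18 ± 0.10). NOB1, which trims the small subunit RNA, rose by 1.13 ± 0.10, as did POLR3D, a subunit of RNA polymerase III (1.11 ± 0.12). The E-box CACGTG was in 17 of 58 promoters given for these genes (29.3%), against 7.27% of all promoters. Cytosolic ribosomal protein genes rose in 66 of 78 cases and fell in 1 (median 0.46), 43 of 46 of the large and 23 of 32 of the small subunit. With median centring 31 rose and 4 fell (median 0.22). RPL12 had 6298 and 4947 normalised reads with the combination, against 2369.5 and 2221 with vehicle (1.28 ± 0.11) and RPS27 295 and 233 normalised reads with the combination, against 147 and 98.1 with vehicle (1.11 ± 0.17). Both rose, but ribosomal protein genes have many near-identical copies, and no source used here says how shared reads were counted.

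Non-coding hosts of small nucleolar RNAs rose in 12 of 21 tested cases and fell in 3 (median 0.51). GAS5, a growth arrest transcript whose introns carry small nucleolar RNAs, had 2177 and 2314 normalised reads with the combination, against 588 and 635 with vehicle (1.87 ± 0.13). SNHG8 rose by 1.74 ± 0.18 and ZFAS1 by 1.25 ± 0.19. Of 10 nuclear long non-coding RNAs tested 6 rose and 1 fell (median 1.26), with NEAT1, the scaffold of paraspeckles, at 1.51 ± 0.24 and PVT1, the neighbour of MYC, at 1.38 ± 0.14. Translation factors were even, 15 higher and 13 lower of 41 tested. EIF4EBP2, a repressor of cap-dependent initiation, fell (-1.76 ± 0.10), as did EIF5A, a factor of elongation (-1.76 ± 0.08).

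The integrated stress response was split by role in H1703. This pathway slows translation and raises ATF4, which switches on factors of stress and of amino acid supply. Of 49 tested members 21 rose and 9 fell, beside 17.9 and 17.6% of all genes. Their median of 0.23 was -0.01 with median centring. The list's medians were 1.35 in H460, 1.14 in HCC827 and 0.56 in H441. In the test of the difference 30 members were lower in H1703 than in the mean of those lines (beside 14.1% of all genes) and 7 were higher (beside 10.7%).

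Most transcription factors of the pathway rose. Of 7 transcription factors 6 rose and 1 fell, and of 12 tested regulators 6 rose and 1 fell. PPP1R15A, or GADD34, which reverses the translational block, had 4790.5 and 3578 normalised reads with the combination, against 337 and 269.7 with vehicle (3.77 ± 0.20). DDIT3, or CHOP, a factor tied to cell death, had 2168 and 2269.6 normalised reads with the combination, against 341 and 308 with vehicle (2.76 ± 0.11), and ATF3 had 1551 and 1491 normalised reads with the combination, against 254 and 298 with vehicle (2.45 ± 0.17). ATF4 itself had 3826 and 3564 normalised reads with the combination, against 1726 and 1674 with vehicle (1.12 ± 0.08). In all 4 genes the libraries of the 2 conditions stood apart. GDF15, a secreted stress cytokine, had 166 and 175 normalised reads with the combination, against 10.7 and 4.20 with vehicle (4.19 ± 0.39), and SESN2, an inhibitor of mTORC1, rose by 2.24 ± 0.19.

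Amino acid genes were divided. Of 10 genes of amino acid synthesis 3 fell and 2 rose, and of 8 transporters 3 fell and 1 rose. Of 12 tRNA synthetases 6 rose and 1 fell. Over all tested genes 17.9% rose and 17.6% fell. PSAT1, of serine synthesis, had 1122 and 1374 normalised reads with the combination, against 2174 and 2245 with vehicle (-0.83 ± 0.10), while its changes were 1.66 in H460, 1.72 in HCC827 and 0.82 in H441. PHGDH, the first enzyme of that pathway, had 650.1 and 728 normalised reads with the combination, against 1249 and 1134 with vehicle (-0.79 ± 0.23), with a difference of -2.01 ± 0.26 to the other lines. PSPH, which completes it, had a change of -0.87 ± 0.11, so all 3 serine enzymes fell in H1703, though PHGDH did not pass without combination library 1 (adjusted p = 0.0853) or vehicle library 1 (0.0798). ASNS, asparagine synthetase, rose by 2.10 ± 0.36. The amino acid carrier SLC7A11 fell (-0.58 ± 0.09, difference -1.61 ± 0.11), as did SLC7A5 (-0.55 ± 0.11, difference -1.45 ± 0.12), while SLC3A2, the heavy chain both pair with, rose by 1.53 ± 0.10. The letters TGATGNAA, of the response element that ATF4 binds, were in 8 of 41 promoters given for the list (19.5%) and in 3.75% of all.

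Genes of the endoplasmic reticulum stress response were also split. Of 15 chaperones 5 rose and 7 fell, and of 11 tested regulators and degradation genes 8 rose and 0 fell. HSPA5, or BiP, the main chaperone of the endoplasmic reticulum, had 16252 and 16036 normalised reads with the combination, against 3919 and 4031 with vehicle (2.02 ± 0.06). The other lines had changes of 0.28 in H460, 0.27 in HCC827 and 0.09 in H441, a difference of 1.81 ± 0.07 (adjusted p = 6.73e-12). DNAJB9, a BiP co-chaperone, had 295 and 356 normalised reads with the combination, against 68.2 and 94.6 with vehicle (1.98 ± 0.16). ERN1, the sensor IRE1, had 638 and 688 normalised reads with the combination, against 167 and 179 with vehicle (1.92 ± 0.13), and the sensor gene ATF6 rose by 0.94 ± 0.09. The disulfide isomerases P4HB (-0.62 ± 0.07), PDIA3 (-0.42 ± 0.07), PDIA4 (-0.56 ± 0.07) and PDIA6 (-0.52 ± 0.08) fell. Of the abundant chaperones besides HSPA5, CALR fell (-0.57 ± 0.06), while CANX rose by 0.27 ± 0.06 and HSP90B1 by 0.39 ± 0.06, and neither of the pair passed with median centring (0.02 and 0.15).

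The promoters of HSPA5 and DNAJB9 are shown with the CCAAT box, the motif that NF-Y binds, in capitals. The longer stress element of which this box can be a part was not searched.
HSPA5 (chr9:125241294-125241593, minus strand): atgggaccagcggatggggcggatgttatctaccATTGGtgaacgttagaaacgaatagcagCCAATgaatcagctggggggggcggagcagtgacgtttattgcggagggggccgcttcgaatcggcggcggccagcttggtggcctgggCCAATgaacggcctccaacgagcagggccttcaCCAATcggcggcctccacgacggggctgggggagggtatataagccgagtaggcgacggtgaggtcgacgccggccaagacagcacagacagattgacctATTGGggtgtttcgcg
DNAJB9 (chr7:108569624-108569923, plus strand): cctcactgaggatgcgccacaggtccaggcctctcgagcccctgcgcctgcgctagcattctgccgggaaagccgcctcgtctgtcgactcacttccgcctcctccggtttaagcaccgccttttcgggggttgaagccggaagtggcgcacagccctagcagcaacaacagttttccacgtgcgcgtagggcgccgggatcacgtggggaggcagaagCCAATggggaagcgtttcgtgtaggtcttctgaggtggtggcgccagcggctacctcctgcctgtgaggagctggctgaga
The HSPA5 promoter has 5 copies, counting both strands, and that of DNAJB9 has 1. CCAAT was in 20 of 24 promoters given for this list (83.3%), against 35.6% of all.

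Cytosolic chaperone and proteasome genes mostly fell. Of 34 tested heat shock and chaperonin genes 23 fell and 3 rose (median -0.79), among them 7 of 8 subunits of the chaperonin CCT. HSP90AA1, the inducible HSP90, had 8611 and 7833 normalised reads with the combination, against 31199 and 30550.5 with vehicle (-1.91 ± 0.06). HSPA8, the constitutive HSP70, had 6332 and 6369 normalised reads with the combination, against 18415 and 18787 with vehicle (-1.55 ± 0.06). In both genes the libraries of the 2 conditions were far apart and replicates close. DNAJA1, an HSP40, fell (-1.69 ± 0.10), as did HSPE1, the mitochondrial co-chaperonin (-1.52 ± 0.23). Of 31 proteasome genes 27 fell and 0 rose (median -0.71), 12 of 14 of the core and 15 of 17 of the regulatory particle, with PSMC3 at -1.36 ± 0.11 and PSMA4 at -1.34 ± 0.08. In the difference to the other lines 24 of the 34 chaperone and 21 of the 31 proteasome genes were lower in H1703, beside 14.1% of all genes. PSMC3 (-0.95) and PSMA4 (-0.43) fell in H460 too, so against that line these 2 genes differ in size and not in direction.

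The heat shock element is marked in the promoters of HSPA8 and HSP90AA1, searched on both strands as 3 alternating GAA and TTC units with 2 free bases between units.
HSPA8 (chr11:123062087-123062386, minus strand): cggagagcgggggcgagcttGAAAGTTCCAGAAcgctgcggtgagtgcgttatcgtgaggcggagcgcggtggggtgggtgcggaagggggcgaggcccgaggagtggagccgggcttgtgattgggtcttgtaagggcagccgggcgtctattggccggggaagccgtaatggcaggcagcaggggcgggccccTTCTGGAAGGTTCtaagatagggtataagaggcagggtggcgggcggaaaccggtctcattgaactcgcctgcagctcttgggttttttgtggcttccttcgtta
HSP90AA1 (chr14:102086995-102087294, minus strand): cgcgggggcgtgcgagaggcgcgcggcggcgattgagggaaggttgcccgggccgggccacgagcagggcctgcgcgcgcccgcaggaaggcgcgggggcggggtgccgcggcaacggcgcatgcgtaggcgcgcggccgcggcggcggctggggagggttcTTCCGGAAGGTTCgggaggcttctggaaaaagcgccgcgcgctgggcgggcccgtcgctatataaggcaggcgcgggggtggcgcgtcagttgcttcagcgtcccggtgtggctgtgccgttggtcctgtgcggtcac
It was in 6 of 29 promoters given for the list (20.7%) and in 0.502% of all. Of the motifs searched in other lists, the AP-1 site TGACTCA was in 1 of 16 metalloproteinase and plasminogen promoters and in 1 of 16 immediate early promoters (6.25% each), beside 5.05% of all. The sterol response element TCACNCCAC was in 1 of 22 promoters of cholesterol genes (4.55%), beside 1.17% of all. The metal response element TGCNCNC was in 4 of 5 promoters of metal response genes (80.0%), beside 55.0% of all. The serum response element, searched in 6 of the forms its A- and T-rich core can take, was in 2 of 16 immediate early promoters (12.5%), beside 0.227% of all.

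RNAs of the mitochondrial genome did not change together. Of its 31 tested genes 5 were higher and 10 lower. Among the 13 mRNAs 3 rose and 6 fell (median -0.58). MT-ATP6, an ATP synthase subunit, had 5237 and 5049 normalised reads with the combination, against 15099.6 and 14348 with vehicle (-1.52 ± 0.13), a difference of -1.32 ± 0.15 to the other lines. MT-ND4, a complex I subunit, had 22214 and 18420.5 normalised reads with the combination, against 14134 and 12229.7 with vehicle (0.62 ± 0.14). The 3 neighbouring genes MT-ATP8 (-1.43 ± 0.19), MT-ATP6 and MT-CO3 (-1.40 ± 0.15) had the largest falls of the mRNAs, and the neighbours MT-ND4L (0.63 ± 0.12) and MT-ND4 the largest rises. The ribosomal RNA MT-RNR2 rose by 0.33 ± 0.08 and MT-RNR1 fell (-0.84 ± 0.20). MT-RNR2 did not pass without combination library 1 (adjusted p = 0.0644) or vehicle library 2 (0.0551), nor MT-RNR1 without combination library 2 (0.093) or vehicle library 1 (0.077). MT-ND1, MT-CO2, MT-ND5 and MT-ND6 did not pass. With median centring 1 mRNA rose and 9 fell, and MT-ND4 (0.38) and MT-RNR2 (0.08) did not pass.

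**Figure D4:**
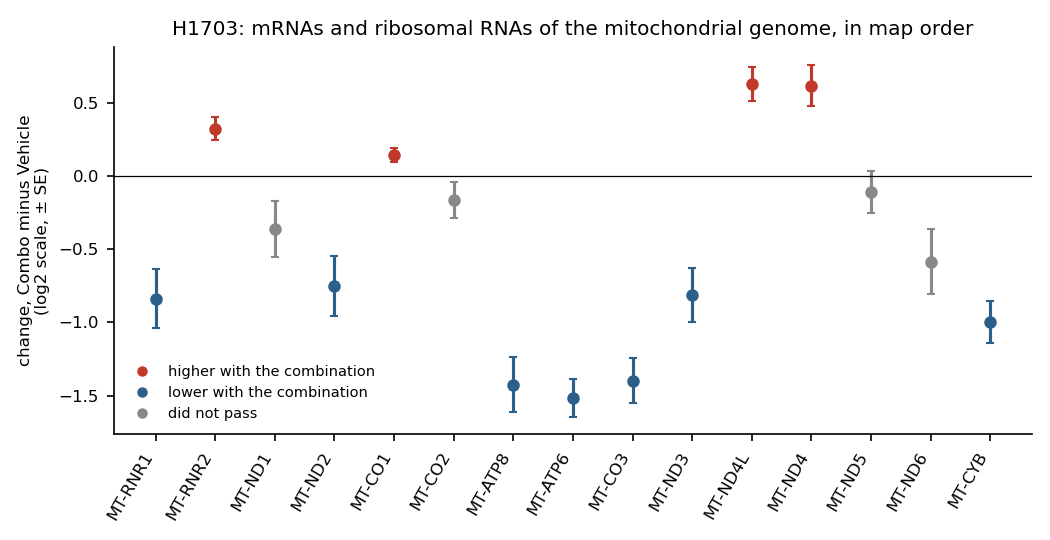
Changes in H1703 of the mRNAs and the 2 ribosomal RNAs of the mitochondrial genome (y axis, combination minus vehicle on the log2 scale, bars ± SE), in the order of the genes along the genome on the x axis. Red genes were higher with the combination, blue genes lower and grey genes did not pass. MT-ATP8, MT-ATP6 and MT-CO3 lie lowest, and MT-ND4L and MT-ND4 lie highest.

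Nuclear genes of the respiratory chain fell in 41 of 76 cases and rose in 3 (median -0.45). Complexes IV and V had 18 of 25 lower and 0 higher, complex I 16 of 38 lower and 2 higher. ATP5MC3, a subunit of the ATP synthase ring, fell (-1.56 ± 0.11), as did NDUFB3, of complex I (-1.39 ± 0.16). SDHA, of complex II, had 675 and 673 normalised reads with the combination, against 231 and 236 with vehicle (1.52 ± 0.16), but it has near-identical pseudogene copies. Of these SDHAP1 also rose (0.64 ± 0.16, and 0.40 with median centring, where it did not pass). SDHAP3 (0.54 ± 0.69) and SDHAP4 (-0.39 ± 0.17) did not pass. Genes of mitochondrial translation and upkeep were 12 higher and 40 lower of 105, and genes of the TCA cycle 1 higher and 14 lower of 23 (median -0.45), with citrate synthase CS at -0.84 ± 0.10.

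Glycolysis genes changed in both directions. Of 19 enzymes 11 fell and 3 rose, and of 4 transporters 3 rose and 1 fell. PKM, pyruvate kinase, had 1583 and 1841 normalised reads with the combination, against 6353 and 6547 with vehicle (-1.92 ± 0.07). LDHA, lactate dehydrogenase, had 795 and 716 normalised reads with the combination, against 2824 and 2708 with vehicle (-1.87 ± 0.08). HK2, the inducible hexokinase, had 766 and 723 normalised reads with the combination, against 191 and 161 with vehicle (2.07 ± 0.14). PKM and LDHA thus fell and HK2 rose, with no overlap of libraries. Of 15 genes of the hypoxia response 6 rose and 4 fell, with ADM, adrenomedullin, at -2.26 ± 0.34 and ANGPTL4 at 1.97 ± 0.25.

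Sterol synthesis genes fell or did not pass, while the list of LXR receptor and sterol efflux genes was divided. Of 28 tested genes of cholesterol synthesis and its control 17 fell and 0 rose (median -0.53), beside medians of -1.08 in H460, -0.75 in HCC827 and -0.04 in H441. EBP, an isomerase of the pathway, had 38.1 and 39.4 normalised reads with the combination, against 176 and 151 with vehicle (-2.001 ± 0.145). Of 11 LXR receptor and sterol efflux genes 5 rose and 2 fell. The falls were in RXRA (-0.52 ± 0.09) and LPCAT3 (-0.79 ± 0.11), neither of them an efflux transporter. ABCA1, which loads cholesterol onto apolipoprotein A-I, had 185 and 179.7 normalised reads with the combination, against 23.4 and 28.0 with vehicle (2.71 ± 0.28), while its changes were -1.23 in H460, -1.81 in HCC827 and -0.06 in H441 and the difference 3.74 ± 0.33. NPC1, which moves cholesterol out of lysosomes, rose by 1.27 ± 0.08. In fatty acid synthesis 7 of 18 fell and 4 rose, with FASN, fatty acid synthase, at -1.19 ± 0.09. PLIN2, which coats lipid droplets, rose by 1.88 ± 0.22.

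Lysosome and autophagy genes leaned upward, 21 higher and 9 lower of 46, beside 17.9 and 17.6% of all genes. Their median was 0.22, and -0.02 with median centring. The autophagy and MiT group had 13 higher and 3 lower of 23, with 10 also higher in the difference to the other lines. RRAGD, a Rag GTPase that answers to MiT factors, had 164 and 134 normalised reads with the combination, against 14.6 and 8.41 with vehicle (3.45 ± 0.38). WIPI1 rose by 1.70 ± 0.28, MAP1LC3B, or LC3B, by 1.55 ± 0.09, and MITF by 0.83 ± 0.12. Of 25 genes in the p53 target list 11 rose and 2 fell (median 0.50), with GADD45A, a growth arrest gene, at 2.32 ± 0.22. MCL1, a guard of mitochondria against death signals, rose by 1.19 ± 0.24, and BIRC3, an inhibitor of apoptosis, had 1926 and 2356 normalised reads with the combination, against 5064 and 5422 with vehicle (-1.30 ± 0.24). Apoptosis regulators as a whole were 7 higher and 6 lower of 28, beside 17.9 and 17.6% of all genes.

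Genes of the NRF2 antioxidant and pentose phosphate list were 7 higher and 13 lower of 27 (median -0.41), counting NFE2L2 and KEAP1. NFE2L2, which encodes NRF2, rose by 0.57 ± 0.09, and its regulator KEAP1 fell (-0.79 ± 0.14). PRDX1, a peroxiredoxin, fell (-1.91 ± 0.10), as did NQO1, a quinone reductase (-1.48 ± 0.09). HMOX1 rose by 1.02 ± 0.25. The export pump ABCC3 rose by 1.61 ± 0.19 on few reads. It had 18.5 and 11.8 normalised reads with the combination, against 4.87 and 2.10 with vehicle. Clock genes were 10 higher and 1 lower of 18 (median 0.65), with HLF at 2.20 ± 0.51 and the repressor NR1D1 at 1.33 ± 0.29. FOXO and arrestin-domain genes were 5 higher and 1 lower of 14 tested, IRS2, the insulin receptor substrate, rising by 1.71 ± 0.13. MT2A, a metallothionein, rose by 2.07 ± 0.20.

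The growth factor receptor genes that mark the line were lower with the combination. PDGFRA (chromosome 4, 54229097 to 54298247) changed by -1.22 ± 0.41 (adjusted p = 0.0257) and FGFR1 (chromosome 8, 38400215 to 38468834), with 3650.3 and 3709 normalised reads with the combination, against 4658 and 4907 with vehicle, by -0.38 ± 0.13 (adjusted p = 0.0342). Neither passed with 1 of the 4 libraries left out. The standard errors pool the spread of all 8 groups, also of lines with almost no PDGFRA reads. PDGFRA had 4732 and 4696 normalised reads with the combination in H1703, against 11368 and 10545 with vehicle. In the other lines it had 0 to 1.09, and the weight of those libraries in its error was not tested. Of 44 tested receptors and ligands 11 rose and 6 fell, shares not far from the 17.9 and 17.6% of all genes, with the ligands FGF1 at 2.39 ± 0.57 and TGFA at 2.28 ± 0.32 and the receptor FGFR3 at -1.79 ± 0.39. Cytokines and chemokines were 8 higher and 1 lower of 22 tested. LIF, a cytokine of the interleukin 6 family, had 3287 and 2974 normalised reads with the combination, against 688 and 628 with vehicle (2.25 ± 0.13).

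Surface, matrix and lineage genes held single members with large changes in both directions. Of 29 tested metalloproteinase and plasminogen genes 8 rose and 5 fell, beside 17.9 and 17.6% of all genes, MMP10 rising by 2.92 ± 0.58 and the inhibitor TIMP2 falling (-1.88 ± 0.13). Of 29 YAP and TGF-beta targets 11 fell and 6 rose, and ID2, an inhibitor of differentiation factors, fell (-2.68 ± 0.31). Collagens, laminins and integrins were 16 higher and 16 lower of 53 tested, COL13A1 rising by 2.94 ± 0.57 and THBS1, thrombospondin 1, falling (-2.10 ± 0.17). IGFBP3, which binds insulin-like growth factors, had 5347 and 6062 normalised reads with the combination, against 13047 and 14978 with vehicle (-1.30 ± 0.11). THY1, a surface protein of mesenchymal cells, had 155 and 161 normalised reads with the combination, against 930.1 and 879 with vehicle (-2.50 ± 0.47). CAV1 (-1.39 ± 0.10) and CAVIN1 (-1.65 ± 0.09), which shape caveolae, both fell. Of 22 neuronal and neuroendocrine genes tested 7 rose and 3 fell, BEX2 with 448 and 531 normalised reads with the combination, against 51.6 and 35.0 with vehicle (3.44 ± 0.29) and UCHL1 at -1.90 ± 0.40.

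The transcription factors SOX2 and ZEB1 changed in opposite directions. SOX2, a lineage factor of squamous lung cancers, had 19.6 and 22.9 normalised reads with the combination, against 178 and 198 with vehicle (-3.00 ± 0.55). ZEB1, a driver of mesenchymal identity, had 2813 and 2447 normalised reads with the combination, against 1318 and 1223 with vehicle (1.05 ± 0.17). Of 31 tested epithelial and mesenchymal genes 5 were higher and 5 lower, about the 17.9 and 17.6% of all genes.

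Genes that present antigen on MHC class I were lower or did not pass, with 1 exception. Of 16 genes of MHC class I presentation 8 fell and 1 rose (median -0.80), and in the difference to the other lines 10 were lower and 0 higher. B2M, the light chain of all class I molecules, had 71.9 and 90.6 normalised reads with the combination, against 441.2 and 427 with vehicle (-2.39 ± 0.15). ERAP2, a trimming peptidase, had 158 and 161 normalised reads with the combination, against 998 and 949 with vehicle (-2.59 ± 0.15), and PSMB9, an immunoproteasome subunit, had 28.3 and 29.2 normalised reads with the combination, against 192 and 159.7 with vehicle (-2.50 ± 0.31). In all 3 genes both libraries with the combination were far below both with vehicle, and their choice required them to pass. TAP1, the peptide transporter, fell (-2.13 ± 0.17). The heavy chain genes HLA-B (-0.50 ± 0.28) and HLA-C (-0.65 ± 0.55) did not pass, though both did with limma voom on recovered reads. HLA-E rose by 0.70 ± 0.18 but did not pass with median centring (0.46), and these near-identical genes share reads. Of 29 interferon-stimulated genes 10 fell and 2 rose, OAS3 with 93.7 and 107 normalised reads with the combination, against 645 and 596 with vehicle (-2.60 ± 0.12) and ISG20 at 2.65 ± 0.22. CD55, which shields cells from complement, had 822 and 842 normalised reads with the combination, against 143 and 139 with vehicle (2.54 ± 0.10), and CD276, or B7-H3, fell (-1.43 ± 0.10).

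Tubulin genes fell in 8 of 12 cases and rose in 1 (median -0.95). TUBA1B had 1432 and 1855 normalised reads with the combination, against 6888 and 8048 with vehicle (-2.19 ± 0.12). Actin, tubulin, HSP90 and HSP70 genes have near-identical copies too. Polycomb and DNA methylation genes were 4 higher and 8 lower of 20, DNMT1, the maintenance methyltransferase, falling (-1.55 ± 0.07).

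H1703 had more genes past the threshold than any other line, 8500 beside 6398 in H460 (26.7%), 2378 in HCC827 (9.92%) and 1110 in H441 (4.63%), at the same number of libraries. Genes that passed the threshold in the same direction in all 4 lines were 121 that rose and 92 that fell. The difference between the H1703 change and the mean change of the other 3 lines passed in 24.8% of genes, 2566 higher in H1703 (10.7%) and 3368 lower (14.1%). Of the 8500 genes that changed in H1703, 5241 also passed in the difference and 3259 did not.

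In 14 genes H1703 changed against calls in all 3 other lines, 12 of them lower and 2 higher in H1703. Beside the amino acid genes PSAT1, IARS1 and SLC7A5 these included FLNA, a crosslinker of actin, with 5827 and 6797 normalised reads with the combination, against 10691 and 10894 with vehicle (-0.78 ± 0.08) and changes of 0.54 in H460, 0.57 in HCC827 and 0.53 in H441. ITGB5, an integrin chain, fell (-0.77 ± 0.10), as did NFKB2, the precursor of p52 (-0.52 ± 0.09). The genes that rose were ZSCAN31 (0.65 ± 0.21) and CILK1, a kinase of cilia (0.64 ± 0.12), of which ZSCAN31 did not pass without combination library 1 or 2 or vehicle library 1 (adjusted p = 0.0983, 0.0651 and 0.266). The genes given here were chosen after their values were seen.

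**Figure D5:**
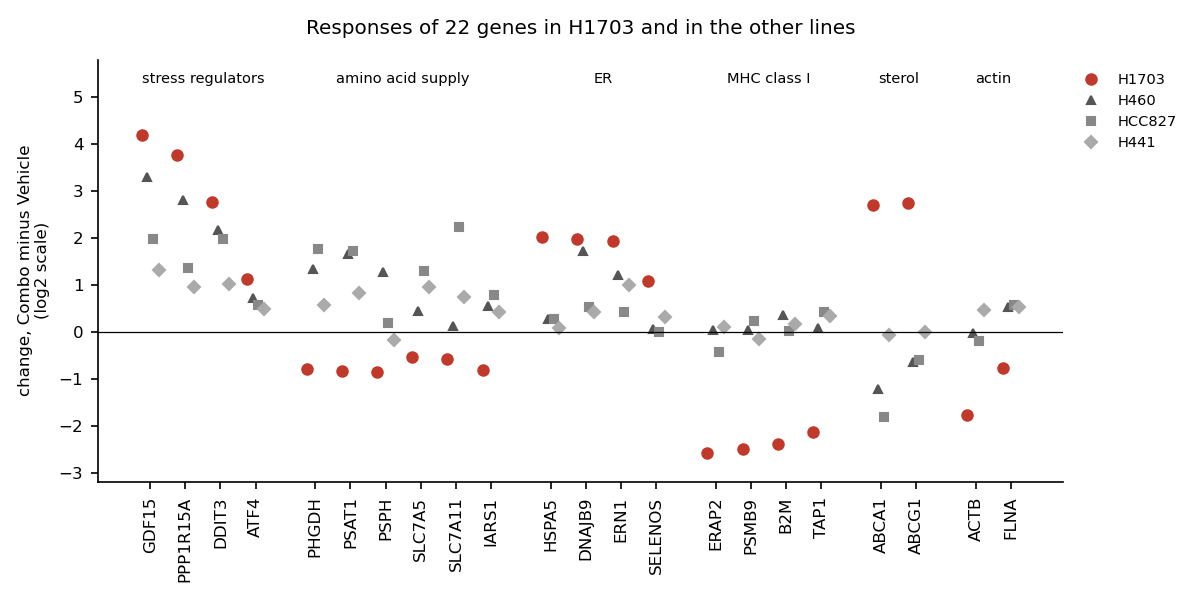
Changes, combination minus vehicle on the log2 scale (y axis), of 22 genes in H1703 (red circles) and in H460, HCC827 and H441 (grey triangles, squares and diamonds), grouped by role; the genes were picked after their values were seen. GDF15, PPP1R15A, DDIT3 and ATF4 lie above 0 in every line, whereas PHGDH, PSAT1, SLC7A5, SLC7A11 and IARS1 lie below 0 only in H1703 among these 4 lines, and B2M, PSMB9 and ERAP2 lie lowest there.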

How the data were processed

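Total RNA was turned into stranded sequencing libraries (SMARTer kit), per the labels' protocols. Trimmomatic, STAR and featureCounts with hg38 (GRCh38) are named, without versions, in the submitters' processing notes, and the annotation release and strand setting are not given in the sources at hand. The deposited table holds log2-scale values that the authors made by a variance-stabilising transformation of gene counts scaled by library, for 28951 genes and 16 libraries, per its values: undoing the transformation returned whole reads, within 0.02, for 100% of values. Normalised reads are these reads over the size factor of the library. GENCODE 29 supplied symbols and positions and matched 28846 of the IDs.

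The test covered 23968 genes whose mean over all libraries exceeded the lowest value, 0.480538, by 1 or more, and left out 4983. One limma fit (3.58.1, R 4.3.3, group means, trend and robust empirical Bayes) gave every change, standard error and adjusted p (Benjamini-Hochberg, 0.05), with the spread pooled over the 8 groups. The difference is the H1703 change minus the mean change of H460, HCC827 and H441. Depth in H1703 was 8493271 to 13604150 reads in the listed genes, so genes of few reads carry a wide counting error, and bounds against 3 reads cover counting error only. The procedure was tested on simulated data.

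Named genes were the 12 largest rises and falls past the threshold with non-overlapping libraries and at least 20 normalised reads, the 3 and 3 with most reads among changes of at least 1, the long non-coding extremes, the 3 and 3 with 0 reads in one condition, the 8 and 8 largest differences, up to 4 members of each list, and MYC, PDGFRA, FGFR1 and the class IIa deacetylases. A few more members, such as CDKN1A, the HLA genes, CDH1 and VIM, were named after their values were seen. Some genes that these rules name are not reported here. The members and lists were chosen with earlier results of these data known, and lists are described by counts and medians with no test. Promoters came from RefSeq. Tables and figures used Python 3.11.15, pandas 2.3.3 and matplotlib 3.10.9. Alternatives were other normalisations and filters, limma voom on the recovered reads, a replicate block and leaving out each library.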

Additional observations from a re-analysis of the deposited data

Results flagged for a closer look

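In 15 genes reported here the H1703 response differed most from the mean response of the other 3 lines, by the limma test of the difference itself, among genes that also passed in H1703 and had at least 20 normalised reads there. They are given as values, and their causes were not tested.

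In 8 genes the difference was positive. It was 4.75 ± 0.65 in ACTN2, 4.51 ± 0.51 in NGFR, 4.15 ± 0.71 in NGFR-AS1, 3.98 ± 0.65 in MAP6 and 3.96 ± 0.79 in BEX4. SIX2, a homeobox gene of kidney and limb development, had 55.5 and 36.2 normalised reads with the combination, against 8.77 and 0.701 with vehicle in H1703, and the difference was 4.38 ± 0.69, with changes of -3.86 in H460, -0.05 in HCC827 and 0.00 in H441. RBM20, a splicing factor of heart muscle, had 149 and 199 normalised reads with the combination, against 16.6 and 22.4 with vehicle (difference 3.96 ± 0.40, adjusted p = 4.57e-07). The pseudogene DNM1P47 had 41.4 and 41.0 normalised reads with the combination, against 2.92 and 0.701 with vehicle (difference 3.78 ± 0.78). SIX2 therefore stood on opposite sides of 0 in H1703 and H460.

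In the other 7 the difference was negative. ADRB1, the beta-1 adrenergic receptor, had 4.36 and 11.8 normalised reads with the combination, against 49.7 and 54.6 with vehicle (difference -3.81 ± 0.61). WNT7B, a secreted Wnt ligand, had 3.27 and 5.52 normalised reads with the combination, against 39.0 and 37.1 with vehicle (difference -3.79 ± 0.33), with changes of 3.30 in H460, -0.21 in HCC827 and 0.51 in H441. CDKN2C had a difference of -3.48 ± 0.26 and FAM111B of -3.15 ± 0.25. IKBKE, a kinase of innate immune signalling, had 14.2 and 4.73 normalised reads with the combination, against 81.8 and 75.7 with vehicle (difference -3.07 ± 0.35). ADGRL2, a latrophilin receptor, had 811 and 943 normalised reads with the combination, against 4968 and 4882 with vehicle (difference -3.01 ± 0.16, adjusted p = 1.61e-10). SEMA3D, a secreted semaphorin, had 45.7 and 84.3 normalised reads with the combination, against 327 and 418 with vehicle (difference -2.99 ± 0.43). In all of these the 2 libraries with the combination lay below both with vehicle in H1703, where their choice required them to pass.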

How the results depend on the processing

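Counts of calls, list medians and the changes of named genes were recomputed under the alternatives. The counts of 4283 higher and 4217 lower genes stayed within 1.5 times the reported ones with limma voom on recovered reads, quantile normalisation, other filters, the H1703 libraries alone, and neither trend nor robust settings. With each library centred on its median the higher count was 2626, the count of genes higher in the difference 1610, and list members that rose 244 in place of 380. Asking for a change of at least 1 left 2211 higher and 1601 lower in H1703, and 1236 higher and 1104 lower in the difference. Leaving out each library in turn gave 2884 to 3241 higher and 3395 to 3721 lower in H1703, and in the difference 1592 to 2005 higher and 2648 to 3009 lower; 1592 was without combination library 1. List members that rose were then 302 to 323 and those that fell 552 to 566. A lone library is assumed there to vary like the other groups, and the difference has no value from H1703 libraries alone. HDAC7 was 0.0466 without vehicle library 1, and passed at -0.41 with median centring and -0.37 without vehicle library 2. MAP4K4 was 0.0232 with quantile normalisation, and TP63, which did not pass, was -1.4239 to 0.2782 when each library was left out.

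The replicate block, which assumes that same-numbered libraries are paired, called 8696 genes, of which 8260 were among the 8500. Deviations of same-numbered H1703 libraries from their group means correlated at 0.0136 over all genes and at 0.1463 over the 9302 genes that averaged 100 normalised reads or more in H1703. The labels give no source for a pairing, and 2 pairs cannot establish one.

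With 2 libraries per condition the spread is borrowed from 8 groups and the median standard error was 0.337. Genes of few reads are limited by depth. MRO, IGFN1, PDGFRA, FGFR1, DUSP6, MAX, PHGDH, MT-RNR1, MT-RNR2 and ZSCAN31 each lost the call in at least 1 alternative, and the cause was not tested.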

Other observations

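Some gene groups were not described above. NF-kB targets were 4 higher and 6 lower of 13, with ICAM1, an adhesion molecule, at 2.07 ± 0.44 and TRAF1, a signalling adaptor, at 2.06 ± 0.28; ICAM1 missed the threshold with the H1703 libraries alone (adjusted p = 0.0805). In the difference to the other lines 7 of the 13 were lower in H1703 and 3 higher. Genes of fatty acid oxidation fell in 4 of 15 cases and rose in 0. Of 8 mitophagy genes 4 rose and 1 fell, and OPTN, a receptor for damaged mitochondria, rose by 1.04 ± 0.17. Of 6 small nuclear and signal recognition RNAs tested 0 passed by limma in either direction.

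Of lineage genes of other lung cell types, 1 of 7 squamous genes tested fell, and 3 of 15 alveolar and airway genes rose and 2 fell, near the 17.9 and 17.6% of all genes. Pseudogenes were 295 higher and 127 lower of 2851, a split that was 184 and 185 with median centring, and their typical level was low (median 4.05 normalised reads). Other genes that passed against calls in all 3 other lines were PTPRF (-0.54 ± 0.08), PDLIM7 (-0.37 ± 0.12), SH3KBP1 (-0.30 ± 0.08), ATP2B1 (-0.24 ± 0.08) and MAP4K4 (-0.20 ± 0.07), all of them lower in H1703. Each of these but PTPRF lost the call when at least 1 of the 4 libraries was left out: without combination library 1 adjusted p was 0.187 in PDLIM7 and 0.176 in ATP2B1, without combination library 2 it was 0.207 in MAP4K4, and without vehicle library 1 it was 0.133 in PDLIM7, 0.08 in SH3KBP1, 0.161 in ATP2B1 and 0.136 in MAP4K4, which also missed at 0.0553 without vehicle library 2.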
